A study of Arabidopsis thaliana with 4 samples.

Results

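CACTA, hAT, Harbinger and similar DNA transposons are the transposable elements (TEs) described here, as differentially methylated regions (DMRs) between leaves of Arabidopsis thaliana grown under 4 light regimes. A region was taken where the TE family name given to it in a table began with ATENSPM, ATHAT, HARBINGER, ATDNA, SIMPLE, TAG, ATTIR, TNAT or BRODYAGA, and each chromosome, start, end and context was counted once per table. This gave 2135 of the 24806 regions of the 4 tables (8.61%), or 12.4% of those with any TE family name. They were 1710 distinct regions in 1057 TE loci of 56 families. The plants were Col-0, the standard laboratory accession, and had 22 days of acclimation to fluctuating light of low mean intensity (FLL), fluctuating light of high mean intensity (FLH), square light of low intensity (SQL) or square light of high intensity (SQH). Square light is constant through the day, and the fluctuating regimes follow a natural light record with the same daily total as the square regime of their intensity. Leaf DNA of several plants was pooled into 1 library per regime for whole-genome bisulfite sequencing. Replicates were therefore lacking, and a difference between regimes could not be set against the spread between plants.

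DNA transposons move by excision and reinsertion, through a transposase that acts on their inverted terminal repeats, and many of their copies are short, have lost the transposase gene and depend on relatives that keep it. CACTA elements, called En/Spm in maize and ATENSPM in the Arabidopsis annotation, are named after the letters at their ends. hAT elements, here the ATHAT and SIMPLEHAT names, are related to maize Activator, and the TAG names recall Tag1, an active hAT element of Arabidopsis. In plants, methylation at CpG is copied by MET1, at CpHpG (H is A, C or T) mainly by CMT3, and at CpHpH by DRM2 through small RNAs at short elements and element edges and by CMT2 inside long elements of heterochromatin. A superfamily column filled for few of these regions gave En-Spm for ATENSPM1A, ATENSPM2, ATENSPM3, ATENSPM5 and ATENSPM7, HAT for ATHATN1 and DNA for ATDNA12T3_2. For the ATDNA, ATTIR, TNAT and BRODYAGA names no superfamily was assigned here, and these families are described by name.

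Bins of 5 elements described below are printed as examples. They include the only 4 DNA transposon bins listed for CpHpH in all 4 comparisons. The other printed bin is an ATENSPM bin that moved alike at both light intensities. The sequences are the plus strand of TAIR10 from RefSeq, 5′ to 3′. Capitals mark the cytosines of the context that was called, a C for a cytosine of the plus strand and a G opposite a cytosine of the minus strand. The context is CpHpH in the first 4 bins and CpHpG in AT1TE52950.
AT1TE36945 (ATTIRX1C, chr1:11422201-11422350): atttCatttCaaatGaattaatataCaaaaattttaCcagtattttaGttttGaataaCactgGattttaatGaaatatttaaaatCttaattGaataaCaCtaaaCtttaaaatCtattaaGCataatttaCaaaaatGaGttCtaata
AT2TE31520 (BRODYAGA1A, chr2:7650551-7650700): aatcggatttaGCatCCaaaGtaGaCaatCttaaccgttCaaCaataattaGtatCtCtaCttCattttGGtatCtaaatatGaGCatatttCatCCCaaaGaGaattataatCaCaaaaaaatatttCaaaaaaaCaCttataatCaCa
AT3TE71030 (SIMPLEHAT2, chr3:17531951-17532100): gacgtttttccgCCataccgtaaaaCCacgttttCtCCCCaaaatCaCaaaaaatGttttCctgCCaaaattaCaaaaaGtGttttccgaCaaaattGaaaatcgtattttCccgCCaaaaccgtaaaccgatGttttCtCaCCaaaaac
AT5TE73020 (SIMPLEGUY1, chr5:20277155-20277304): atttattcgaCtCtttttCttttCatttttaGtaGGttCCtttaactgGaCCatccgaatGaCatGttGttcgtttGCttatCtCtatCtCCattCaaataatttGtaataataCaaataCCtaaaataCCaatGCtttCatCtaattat
AT1TE52950 (ATENSPM6, chr1:16086751-16086900): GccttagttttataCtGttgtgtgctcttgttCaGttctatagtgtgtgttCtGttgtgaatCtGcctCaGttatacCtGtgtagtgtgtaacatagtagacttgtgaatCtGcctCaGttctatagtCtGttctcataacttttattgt
The capitals number 22, 34, 28 and 34 in the CpHpH bins, and 19 in the CpHpG bin.

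For each region the tables give the methylated and total reads, as sums over its cytosines in the context, for both libraries. The level of a region is the methylated share of these reads in percent, and a difference is in percentage points, first-named minus second-named regime. Median depth over the DNA transposon regions was 6.70 to 9.33 reads per cytosine, which gave medians of 64 to 71 reads per region for CpG, 69 to 80 for CpHpG and 229 to 290 for CpHpH. SQH was the shallowest library in each context. The levels below are those of regions that had already been called as different, not of whole families, and unlisted copies were not analysed here. Where a library entered a pair of tables its reads were identical at every DNA transposon region listed in both.

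Most DNA transposon regions were listed for CpHpH. CpHpH made up 65.8% of them, CpHpG 14.5% and CpG 19.7%, against 57.6%, 18.6% and 23.8% of the other TE-named regions. The comparison FLL vs SQL listed 666 regions, FLH vs SQH 532, FLL vs FLH 530 and SQL vs SQH 407. A CpG difference below 40.2 points was not listed in SQL vs SQH, a higher limit than in the other tables, and only 10 CpG regions stood there. Of the distinct regions, 1325 (77.5%) were listed in 1 comparison, 349 (20.4%) in 2, 32 (1.87%) in 3 and 4 (0.234%) in all 4. Over all distinct regions of the series these shares were 79.1%, 18.8%, 1.70% and 0.418%. That most regions were listed once was therefore shared with the series.

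ATENSPM, the CACTA group, had the most regions and the most even spread over contexts. Its 504 regions in 227 loci were 182 for CpG, 165 for CpHpG and 157 for CpHpH, so 31.2% were CpHpH. ATDNA had 360 regions (284 CpHpH), SIMPLE 348 (312 CpHpH), BRODYAGA 328 (246 CpHpH) and ATHAT 292 (168 CpHpH). ATTIR had 90, TAG 89, TNAT 78 and HARBINGER 46, with CpHpH shares of 86.7%, 75.3%, 78.2% and 69.6%. SIMPLE had the highest CpHpH share, 89.7%, with 15 CpG and 21 CpHpG regions.

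**Figure D1:**
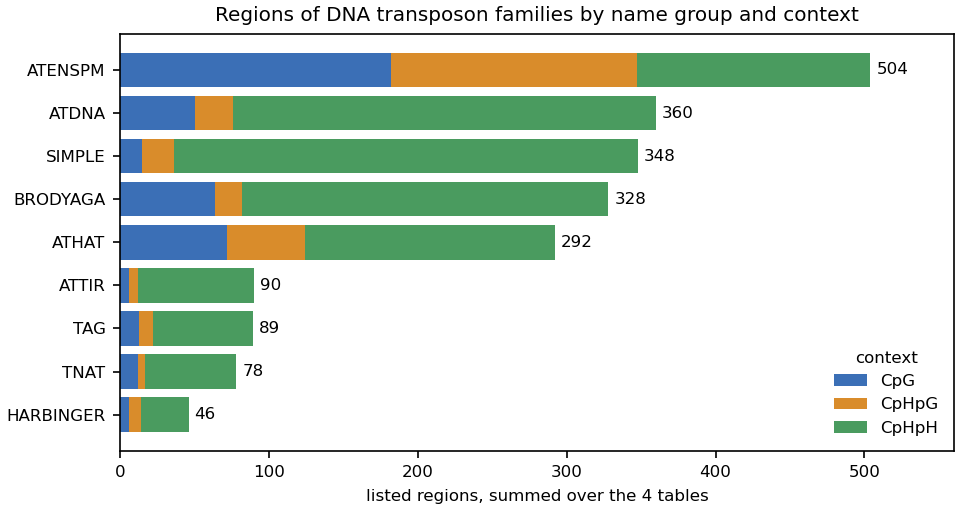
Listed regions per name group (horizontal bars), summed over the 4 tables and split by context in color, with the total beside each bar. ATENSPM reaches 504 regions in 3 blocks of similar length, whereas CpHpH fills most of every other bar.

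The families behind these groups differed in size. SIMPLEGUY1 was the largest with 177 regions, followed by its group members SIMPLEHAT1 (88) and SIMPLEHAT2 (83). BRODYAGA2 had 144 regions, BRODYAGA1A 115 and BRODYAGA1 69. Among the CACTA families, ATENSPM6 had 73, ATENSPM2 69, ATENSPM3 64, ATENSPM5 62, ATENSPM9 56, ATENSPM7 47, ATENSPM10 36, ATENSPM1A 27, ATENSPM1 24, ATENSPM4 23 and ATENSPM11 21. No single family therefore carried the ATENSPM group. Among the ATDNA names, ATDNAI27T9A had 81, ATDNA12T3_2 70, ATDNA2T9C 43, ATDNAI27T9B 40, ATDNAI27T9C 29, ATDNA2T9B 22 and ATDNATA1 22. The ATHAT families were smaller, with ATHATN7 at 61, ATHAT1 at 49, ATHATN6 at 33 and ATHATN4 at 31. TAG2 had 46, TAG3N1 43, TNAT2A 41, TNAT1A 37, ATTIRX1C 40 and ATTIR16T3A 32, and HARBINGER is a single family. The remaining families had at most 19 regions each.

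ATENSPM regions also lay elsewhere in the genome. Windows of 500 kb with fewer than 0.5 times the median of 130.5 genes cover 16.0% of the genome and are called gene-poor here. They held 78.9% of the distinct ATENSPM regions (352 of 446), against 31.9% for ATDNA, 23.3% for TNAT, 20.5% for ATHAT, 18.9% for BRODYAGA, 17.5% for HARBINGER, 16.9% for TAG, 15.5% for SIMPLE and 6.45% for ATTIR. Over all DNA transposon regions the share was 36.0%, over the other TE-named regions 44.9%. Only 5.38% of the ATENSPM regions were within 1 kb of a protein-coding gene, with a median distance of 9005 bp, whereas 79.0% of the ATTIR regions were, with a median distance of 480.5 bp. The ATTIR regions were also the most AT-rich, with a median GC content of 24.7%, against 37.7% for ATENSPM and 33.3% for all DNA transposon regions. Within ATENSPM, 85.1% of CpG, 88.1% of CpHpG and 59.8% of CpHpH regions were gene-poor, so context and position went together. This was shared with the other TE-named regions, at 67.2% of CpG, 67.2% of CpHpG and 25.4% of CpHpH.

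The terminal letters of CACTA elements were looked for as a check of the name. The motif CACTACAA, on either strand, was found in 25 of 433 ATENSPM bins of 150 bp (5.77%), against 0.565% of all 150 bp bins of the genome and 0.525% of the listed bins of the whole series. The families with the most matches were ATENSPM11 and ATENSPM2, with 4 bins each. Outside ATENSPM, 1 bin each of ATDNA2T9A and ATDNAI27T9A matched and none of the ATHAT, HARBINGER, SIMPLE, TAG, ATTIR, TNAT or BRODYAGA bins did. A match says only that these letters are in the bin.

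The comparison SQL vs SQH asks what square light of low against high intensity changed. CpHpH methylation of the listed regions was more often lower in SQL. For CpHpH, 111 of 347 regions were higher in SQL (32.0%, 95% Wilson interval 27.3 to 37.1%), beside 34.6% of all regions of the table. The pooled CpHpH level was 20.2% in SQL and 25.7% in SQH. For CpHpG, 20 of 50 regions were higher in SQL (40.0%, interval 27.6 to 53.8%), beside 54.1% of all regions, with levels of 40.2% in SQL and 45.6% in SQH. The CpHpG interval spans an even split, and at a deposited P-value of at most 0.001 it was 50% of 12 regions, with a difference of −0.976 points. For CpG, 8 of 10 were higher in SQL, beside 80.3%, with 64.2% in SQL and 40.0% in SQH.

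ATENSPM and HARBINGER had the lowest shares of CpHpH regions higher in SQL. In ATENSPM it was 5 of 36, with 11.8% in SQL and 21.1% in SQH, and in HARBINGER 0 of 8, with 20.3% in SQL and 32.9% in SQH. None of the 4 ATENSPM6, 5 ATENSPM1A and 3 ATENSPM4 regions was higher in SQL, and of the ATENSPM5 regions it was 1 of 7. BRODYAGA followed with 17 of 68 (20.3% in SQL, 28.8% in SQH) and TAG3N1 with 1 of 8 (9.96% in SQL, 21.6% in SQH). At the other end, 35 of 76 SIMPLE regions were higher in SQL, and in SIMPLEHAT1 it was 12 of 20 with 23.0% in SQL and 21.0% in SQH. ATHAT had 13 of 40, ATDNA 26 of 75, TAG 4 of 14, TNAT 5 of 18 and ATTIR 6 of 12. All 5 CpHpG regions of ATHAT were lower in SQL, at 19.3% in SQL and 43.6% in SQH.

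The comparison FLL vs FLH asks the same under fluctuating light. There the non-CpG contexts were more often higher at the low intensity. For CpHpH, 211 of 352 regions were higher in FLL (59.9%, interval 54.7 to 64.9%), beside 65.5% of all regions, with 25.4% in FLL and 22.4% in FLH. For CpHpG, 37 of 54 were higher in FLL (68.5%, interval 55.3 to 79.3%), beside 62.2%, with 48.9% in FLL and 38.5% in FLH. CpG was even, with 62 of 124 higher in FLL (50%, interval 41.3 to 58.7%), beside 51.3%, and levels of 69.7% in FLL and 68.5% in FLH. An unweighted mean over regions turned this CpG difference to −0.872 points, and all 3 regions whose proportions differed by at least 0.4 were lower in FLL.

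Most name groups shared this CpHpH direction. ATENSPM had 26 of 43 regions higher in FLL (17.0% in FLL, 13.8% in FLH), ATHAT 27 of 40 (24.1% in FLL, 18.1% in FLH), BRODYAGA 32 of 52, SIMPLE 44 of 76, ATDNA 41 of 74, TAG 14 of 24, ATTIR 13 of 20 and TNAT 8 of 12. HARBINGER, with 6 of 11, had a lower pooled level in FLL (22.9%) than in FLH (26.2%). Among families, ATHATN6 stood at 37.6% in FLL and 23.3% in FLH (6 of 9 higher), ATHAT1 at 24.7% in FLL and 11.4% in FLH (3 of 3) and ATENSPM9 at 22.3% in FLL and 12.9% in FLH (5 of 6). ATHATN4 went the other way, with 1 of 4 higher and 14.7% in FLL against 20.4% in FLH. In CpG, BRODYAGA1A had 1 of 8 regions higher in FLL, whereas ATENSPM9 had 6 of 7, with 86.6% in FLL and 68.8% in FLH.

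The comparison FLH vs SQH asks what fluctuation changed at high intensity. CpHpG was more often higher in FLH, CpHpH more often lower. For CpHpG, 60 of 87 regions were higher in FLH (69.0%, interval 58.6 to 77.7%), beside 78.6% of all regions, with 42.7% in FLH and 31.6% in SQH. For CpHpH, 138 of 339 were higher (40.7%, interval 35.6 to 46.0%), beside 44.7%, with 22.4% in FLH and 24.6% in SQH. For CpG, 42 of 106 were higher (39.6%, interval 30.8 to 49.1%), beside 42.4%, with 67.6% in FLH and 74.0% in SQH. This CpG direction changed with the regions kept. Of the 31 regions covered by 8 or more reads per cytosine in each library 51.6% were higher in FLH and the difference was 2.09 points, and among the 6 regions whose proportions differed by at least 0.4, 83.3% were higher in FLH.

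ATTIR went the other way in CpHpH. In this group 15 of 19 regions were higher in FLH, with 33.1% in FLH and 22.1% in SQH, and in its family ATTIRX1C 10 of 12, with 37.4% in FLH and 23.9% in SQH. BRODYAGA had the lowest share, 21 of 71 (20.5% in FLH, 27.5% in SQH), which came from BRODYAGA1A with 3 of 19 and BRODYAGA1 with 4 of 20 more than from BRODYAGA2 with 14 of 32. ATENSPM had 11 of 33, ATDNA 22 of 60, TNAT 6 of 16, TAG 6 of 14, ATHAT 16 of 36, SIMPLE 38 of 84 and HARBINGER 3 of 6. In CpHpG, 37 of 45 ATENSPM regions were higher in FLH (46.7% in FLH, 30.4% in SQH) and 12 of 18 ATHAT regions, whereas 1 of 7 SIMPLE regions was (35.1% in FLH, 47.7% in SQH). Position went along with this: 42 of 52 CpHpG regions in gene-poor windows were higher in FLH (80.8%) and 18 of 35 elsewhere (51.4%), beside 83.4% and 70.7% of all regions. For CpG, ATENSPM had 15 of 47 higher in FLH and TAG 5 of 5.

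The comparison FLL vs SQL asks the same at low intensity. It held the most DNA transposon regions and the largest pooled CpHpG difference. Regions listed for CpG were mostly lower in FLL, and those listed for CpHpG or CpHpH mostly higher. The 2 bins listed for both CpG and CpHpG, and the 1 bin for CpG and CpHpH, had the same direction in both contexts. For CpG, 37 of 180 regions were higher in FLL (20.6%, interval 15.3 to 27.0%), beside 22.4% of all regions, with 56.1% in FLL and 71.0% in SQL. For CpHpG, 100 of 119 were higher in FLL (84.0%, interval 76.4 to 89.5%), beside 82.8%, with 51.6% in FLL and 33.3% in SQL. For CpHpH, 254 of 367 were higher (69.2%, interval 64.3 to 73.7%), beside 73.3%, with 26.8% in FLL and 20.6% in SQL.

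ATENSPM held the most CpG and CpHpG regions of this comparison. Of its regions, 8 of 74 were higher in FLL for CpG (65.3% in FLL, 85.2% in SQL), 54 of 62 for CpHpG (53.8% in FLL, 34.7% in SQL) and 41 of 45 for CpHpH (21.6% in FLL, 12.1% in SQL). The CpHpH regions lay in 36 loci of 12 families, and all 8 ATENSPM5 regions, all 5 ATENSPM7 regions and all 4 ATENSPM6 regions were higher in FLL. ATENSPM7 stood at 15.6% in FLL and 4.97% in SQL. In CpG none of the 8 ATENSPM11, 7 ATENSPM9 and 5 ATENSPM7 regions was higher in FLL, and in CpHpG all 8 ATENSPM10 regions were, with 66.5% in FLL and 41.6% in SQL. Within gene-poor windows, 27 of 29 ATENSPM regions were higher in FLL for CpHpH, against 34 of 61 regions of the other DNA transposons, and outside these windows it was 14 of 16 against 179 of 261. Over all regions of the series these CpHpH shares were 71.1% in gene-poor windows and 73.9% elsewhere. For CpG, 5 of 64 ATENSPM regions were higher in FLL in gene-poor windows and 3 of 10 outside, beside 14.1% and 27.2% of all regions, so the position difference was shared with the rest of the series.

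The other groups were less one-sided in CpHpH. ATTIR had 22 of 27 regions higher in FLL (31.4% in FLL, 21.6% in SQL), HARBINGER 6 of 7 (39.5% in FLL, 28.8% in SQL), TAG 11 of 15, BRODYAGA 36 of 55, ATHAT 34 of 52, SIMPLE 49 of 76, ATDNA 46 of 75 and TNAT 9 of 15. In TAG2 it was 8 of 9, in ATHATN7 13 of 16, and in SIMPLEHAT2 14 of 19 with 29.0% in FLL and 20.1% in SQL. ATDNAI27T9A had 13 of 27, with 25.9% in FLL and 29.1% in SQL, and ATHATN4 0 of 3. In CpG, all 5 TNAT regions were lower in FLL (58.4% in FLL, 84.9% in SQL), as were 19 of 23 ATDNA and 22 of 31 BRODYAGA regions. In CpHpG, 6 of 6 SIMPLE, 17 of 20 ATHAT and 8 of 13 ATDNA regions were higher.

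**Figure D2:**
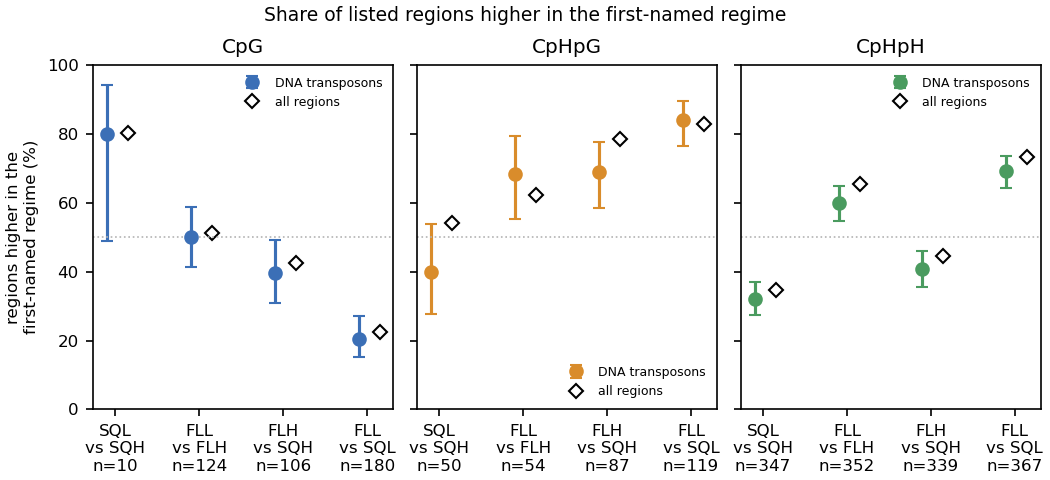
Share of listed regions with the higher level in the first-named regime (percent, filled circles with 95% Wilson intervals) per comparison and context, with the number of regions below, beside the same share over all regions of the table (open diamonds). The CpHpH share is 32.0% in SQL vs SQH and 69.2% in FLL vs SQL, and the CpHpG share 40.0% in SQL vs SQH and 84.0% in FLL vs SQL.

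In these comparisons the shares followed those of all regions. The share over all regions was above the interval for CpHpG in SQL vs SQH and in FLH vs SQH and for CpHpH in FLL vs FLH, and within it otherwise. Regions of 1 locus or neighborhood are not independent, so the intervals are narrower than they should be, and a share near that of all regions is no result about DNA transposons.

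**Figure D3:**
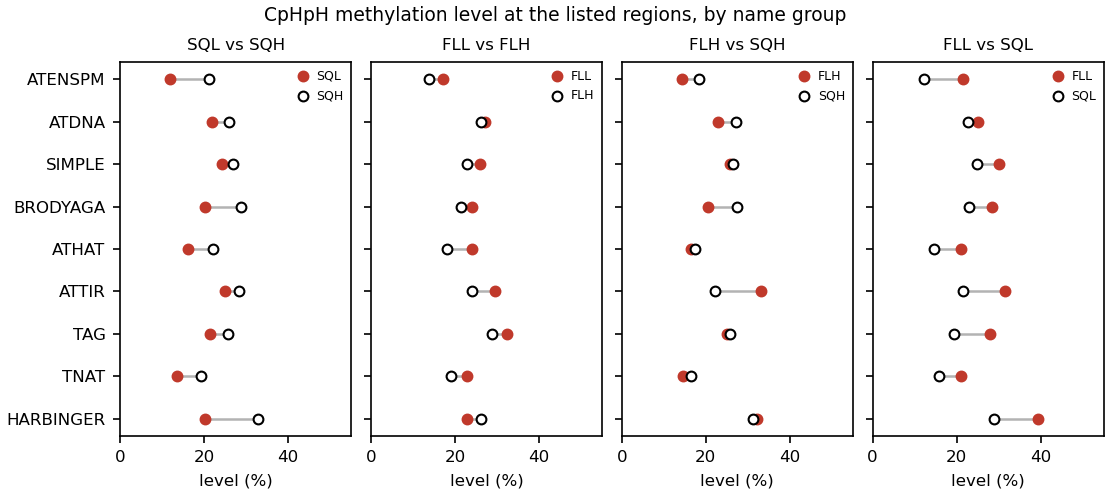
Pooled CpHpH level (percent) of the listed regions of each name group in the first-named regime (filled circles) and the second-named regime (open circles) of each comparison. ATENSPM lies at 11.8% in SQL and 21.1% in SQH, and at 21.6% in FLL and 12.1% in SQL, and ATTIR has the widest gap in FLH vs SQH, 33.1% and 22.1%.

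FLH vs SQH and FLL vs SQL have no library in common. Of their DNA transposon regions 39 were listed in both, 7.33% of the first set and 5.86% of the second, and 25 of these had the same direction, 17 higher and 8 lower in fluctuating light. Over all regions of the series 583 were listed in both (8.90% and 6.88%), and 287 of these had the same direction. SQL vs SQH and FLL vs FLH shared 45 regions (11.1% and 8.49%), of which 27 had the same direction. Over all regions of the series they shared 338 (9.65% and 5.39%), of which 151 had the same direction. The CpHpH regions made up 31 of the 39 and 43 of the 45 shared DNA transposon regions.

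A few elements differed between square and fluctuating light by similar amounts at both intensities. They were picked for large differences listed in both comparisons in the same direction, so their agreement is a description. In an ATENSPM6 element (AT1TE52950), whose bin is printed above and lies in an exon of the pseudogene AT1G42727, the CpHpG level was 60.0% in FLL (126 of 210 reads), 65.5% in FLH (78 of 119), 35.8% in SQL (62 of 173) and 40.7% in SQH (55 of 135). Both fluctuating libraries were above both square ones, by 24.2 points in FLL vs SQL (adjusted p = 1.9e-05, two-sided Fisher's exact test on reads) and 24.8 in FLH vs SQH (adjusted p = 0.00028, same exact test). The bin had been called from these reads, so low p-values were set in advance. With the mean number of reads per cytosine as observations, the same exact test gave adjusted p = 0.87 and 0.94. A BRODYAGA2 element (AT4TE31135, chr4:7164551-7164700), 279 bp upstream of AT4G11930, had CpHpG levels of 64.1% in FLL, 48.7% in FLH, 38.1% in SQL and 18.3% in SQH. An ATDNA2T9C element (AT2TE75295, chr2:16742651-16742800), 171 bp upstream of AT2G40095, a gene for an alpha/beta hydrolase related protein, went the other way in CpG, with 46.3% in FLL, 44.9% in FLH, 75.9% in SQL and 73.3% in SQH.

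Others, picked in the same way from the intensity comparisons, differed between low and high intensity alike in square and fluctuating light. An ATTIRX1C element (AT1TE81285, chr1:24745051-24745200) 2980 bp upstream of RGL1, a DELLA repressor of gibberellin responses, had CpHpH levels of 59.2% in FLL, 40.1% in FLH, 52.8% in SQL and 31.6% in SQH. Both low-intensity libraries were above both high-intensity ones, by 19.2 points in FLL vs FLH and 21.1 in SQL vs SQH. A SIMPLEHAT1 element (AT1TE42930, chr1:13152001-13152150) had 36.4% in FLL, 19.0% in FLH, 40.1% in SQL and 19.0% in SQH for CpHpH. A BRODYAGA1A element (AT1TE53435, chr1:16225651-16225800) in an exon of AT1G43110, a transcribed pseudogene, was the reverse for CpHpG, with 2.0% in FLL (1 of 50 reads), 28.6% in FLH (14 of 49), 4.84% in SQL (3 of 62) and 25.0% in SQH (17 of 68).

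The 4 bins listed for CpHpH in all comparisons had no such common direction. In AT1TE36945 (ATTIRX1C), 361 bp downstream of AT1G31835, the level was 15.8% in FLL, 25.8% in FLH, 26.6% in SQL and 15.7% in SQH. In AT5TE73020 (SIMPLEGUY1), 4334 bp upstream of AT5G49870, a gene for a mannose-binding lectin superfamily protein, it was 34.3% in FLL, 49.8% in FLH, 48.9% in SQL and 33.6% in SQH. FLH and SQL were the high pair in both, and FLL and SQH the low pair. The other bins were the mirror image. AT2TE31520 (BRODYAGA1A), 238 bp downstream of AT2G17580, a gene of the polynucleotide adenylyltransferase family, had 44.7% in FLL, 24.3% in FLH, 20.2% in SQL and 45.0% in SQH. AT3TE71030 (SIMPLEHAT2), 587 bp upstream of AT3G47580, a gene for a leucine-rich repeat protein kinase, had 20.6% in FLL, 7.36% in FLH, 6.11% in SQL and 20.3% in SQH. These bins were picked for being in every table, so their values are a description. By two-sided Fisher's exact test their adjusted p-values lay between 1.8e-06 and 0.0095, low values that calling the bins from the same reads had set in advance.

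**Figure D4:**
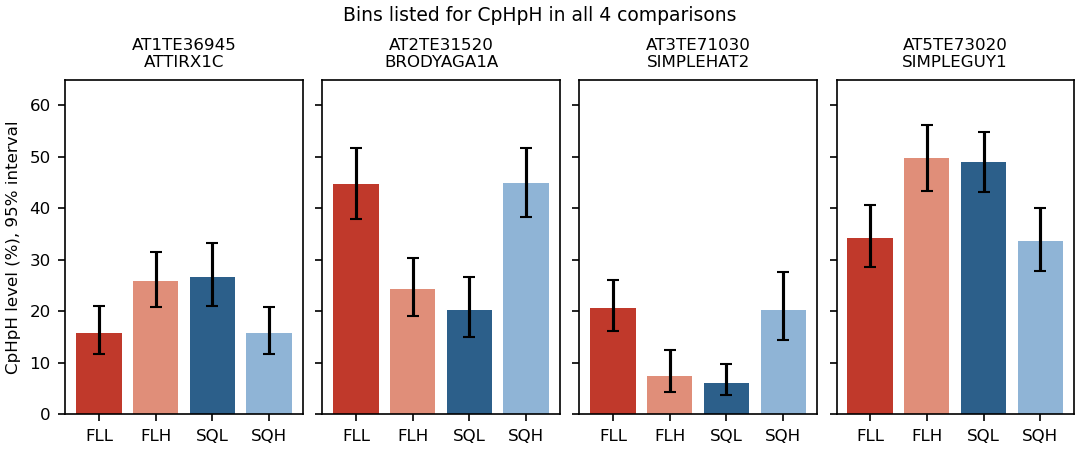
CpHpH level (percent, bars from 0) with 95% Wilson intervals over reads in the 4 libraries for the bins listed in all 4 comparisons. In AT2TE31520 the FLL and SQH bars stand at 44.7% and 45.0%, the FLH and SQL bars at 24.3% and 20.2%.

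Levels in all 4 libraries could be read for 78 CpHpH regions, from whichever tables list them. Their pooled level was 32.3% in FLL, 28.3% in FLH, 25.8% in SQL and 29.8% in SQH. SQL was the lowest library at 33 of them and FLL at 9, and SQH was the highest at 24 and FLL at 23. These regions depend on which comparisons called them, so the counts are a description. SQL was also the lower library in the pooled CpHpH level of all regions. It was 19.8% in SQL and 24.4% in SQH for SQL vs SQH, and 25.9% in FLL and 18.6% in SQL for FLL vs SQL.

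A SIMPLEHAT2 element (AT2TE27440, chr2:6714851-6715000) lay 316 bp downstream of NRPE3B, a gene for a subunit of RNA polymerase V, which acts in RNA-directed DNA methylation. Its CpHpH level was 53.5% in FLL (263 of 492 reads), 28.3% in FLH (140 of 494), 36.4% in SQL (162 of 445) and 40.6% in SQH (209 of 515). FLL was above FLH by 25.1 points. A SIMPLEGUY1 element (AT5TE29690, chr5:8215805-8215954) had 43.1% in FLL, 37.6% in FLH, 17.7% in SQL and 21.6% in SQH, and an ATTIR16T3A element (AT4TE13910, chr4:2989601-2989750), 331 bp downstream of AT4G05631, 39.2% in FLL, 35.4% in FLH, 22.9% in SQL and 10.6% in SQH. In both the fluctuating libraries were above the square ones for CpHpH.

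Several bins with large differences lay inside genes. A TNAT1A element (AT5TE52210, chr5:14519555-14519704) in an intron of GSL09, a glucan synthase-like gene, had CpG levels of 48.7% in FLL (19 of 39 reads), 76.3% in FLH (29 of 38), 84.2% in SQL (32 of 38) and 35.3% in SQH (12 of 34). An ATTIRTA1 element (AT2TE01770, chr2:424751-424900) in an intron of PQL3, a gene for a PsbQ-like protein of the chloroplast, had CpHpH levels of 30.3% in FLL, 41.8% in FLH, 12.9% in SQL and 32.2% in SQH. SQL was the lowest library in PQL3 and the highest in GSL09. In a TNAT1A element (AT2TE02880, chr2:670451-670600) that overlaps an untranslated region of ISPD, a gene of plastid isoprenoid synthesis, the CpHpG level was 75.7% in SQL (28 of 37 reads) and 38.9% in SQH (14 of 36).

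Among bins with 8 or more reads per cytosine in each library, the next 4 each had the largest difference of a comparison and context. They rest on 33 to 52 reads per library. CpG in a TNAT1A element (AT2TE20880, chr2:5080451-5080600) was 82.9% in FLH (29 of 35 reads) and 40.0% in SQH (14 of 35). CpHpG in an ATDNA2T9C element (AT4TE30315, chr4:7012901-7013050) was 34.6% in FLH (18 of 52) and 70.3% in SQH (26 of 37). In an ATHAT7 element (AT2TE06785, chr2:1465301-1465450), 2431 bp upstream of XERICO, a RING-type gene of abscisic acid homeostasis, CpHpG was 59.5% in FLL (22 of 37) and 24.4% in FLH (10 of 41). In a BRODYAGA1A element (AT1TE41980, chr1:12895051-12895200) it was 74.3% in FLL (26 of 35) and 27.3% in SQL (9 of 33). All 48 differences of the 21 bins that the rule for naming picked had adjusted p-values of at most 0.0095 by two-sided Fisher's exact test. That test compares libraries and not conditions. The bins had been called from the same reads, so low values were set in advance. By the same test 99.4% to 99.6% of all regions of each comparison had an adjusted p under 0.01. Reads over neighboring cytosines come from the same molecules, and with the mean number of reads per cytosine as the number of observations 0 of 48 kept an adjusted p under 0.01 and 2 had an unadjusted one.

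Of the 1057 loci, 683 (64.6%) had 1 region, and 48 had a region in each comparison. These counts were not set beside those of other TEs. The locus with the most was AT1TE36570, an ATENSPM3 element whose 15 distinct regions spanned 7200 bp (chr1:11303101-11310300). In FLL vs SQL 7 of its 8 regions were higher in FLL, with 28.1% in FLL and 18.1% in SQL for the 6 CpHpH regions and 76.8% in FLL and 54.6% in SQL for the 2 CpHpG regions. In SQL vs SQH 1 of 5 was higher in SQL, and the 2 CpHpH regions stood at 20.2% in SQL and 31.2% in SQH. The HARBINGER element AT1TE74860 had 10 distinct regions over 5550 bp, and all 3 of SQL vs SQH were lower in SQL (24.4% in SQL, 38.1% in SQH). The ATENSPM3 element AT5TE43855, with 10 over 6450 bp, was mostly higher: 2 of 2 in SQL vs SQH, 3 of 3 in FLL vs FLH, 1 of 1 in FLH vs SQH and 3 of 5 in FLL vs SQL. In the ATENSPM2 element AT3TE51460 all 3 CpHpH regions of SQL vs SQH (7.83% in SQL, 20.4% in SQH) and both of FLH vs SQH (9.74% in FLH, 22.8% in SQH) were lower, in comparisons that share the SQH library. The ATENSPM7 element AT1TE49740 had 8 distinct regions, of which both CpHpG regions of SQL vs SQH were lower in SQL (41.2% in SQL, 65% in SQH).

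**Figure D5:**
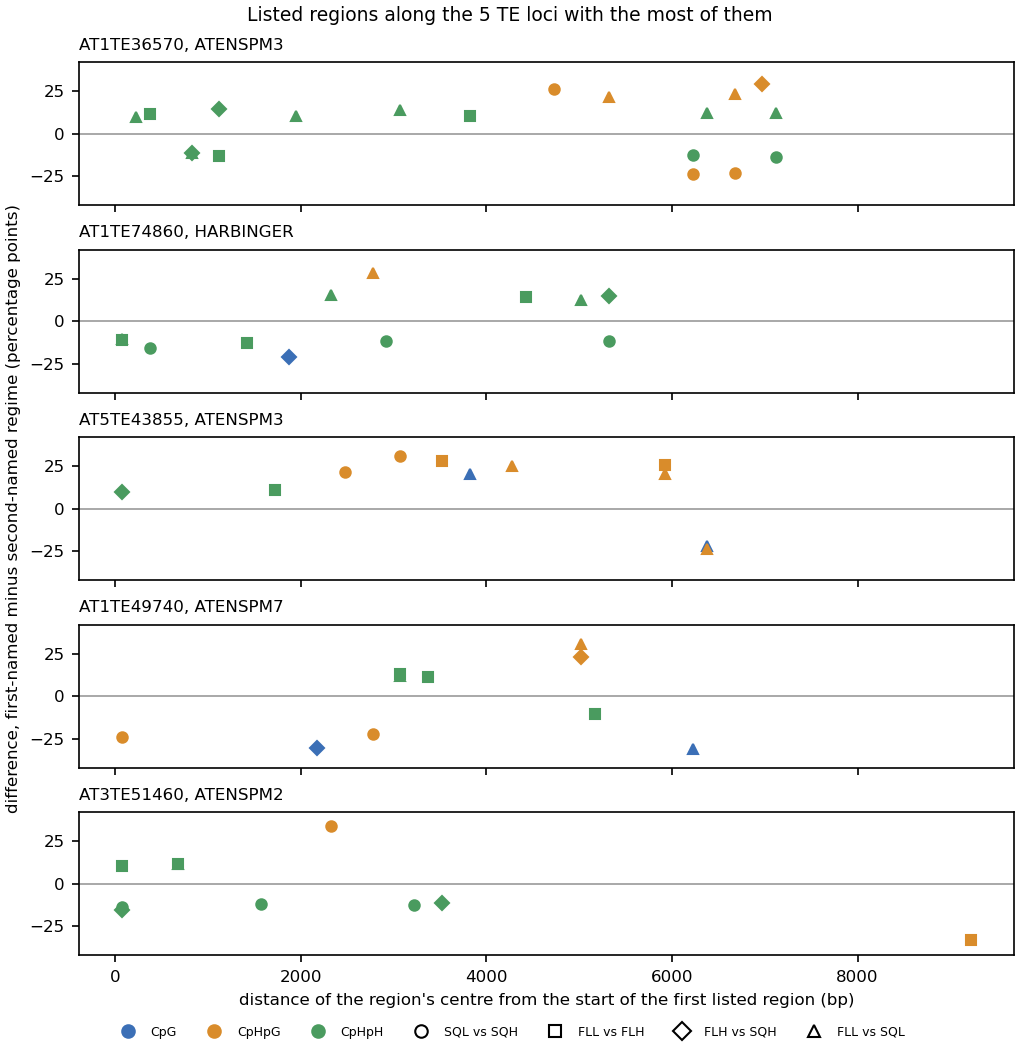
Difference of each listed region (percentage points, first-named minus second-named regime) against its distance in bp from the start of the first listed region, for the 5 TE loci with the most distinct regions. Color gives the context and shape the comparison. Along AT1TE36570, 7 of the 8 triangles (FLL vs SQL) lie above 0 and 4 of the 5 circles (SQL vs SQH) below it.

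Regions of 1 locus did not always move together. Among loci with at least 2 CpHpH regions in a comparison, all had the same direction in 13 of 36 loci for SQL vs SQH, 11 of 39 for FLL vs FLH, 15 of 36 for FLH vs SQH and 17 of 36 for FLL vs SQL. These were 36.1%, 28.2%, 41.7% and 47.2%, beside 47.3%, 40.9%, 37.1% and 55.7% of the loci of other TEs. By contrast, a bin listed for 2 contexts in a comparison had the same direction in both each time: in 27 of 27 bins for CpHpG and CpHpH, 5 of 5 for CpG and CpHpH and 3 of 3 for CpG and CpHpG. Over the whole series it was 301 of 303, 121 of 128 and 98 of 101, so this was shared with other regions.

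The tables named a gene for 558 of the 2135 regions (26.1%), 296 genes in all. These counts were not set beside those of all regions, so they describe the DNA transposon regions only. Of the 296 genes, 10 were named in every comparison. Pseudogenes made up 7 of them: AT1G31570, AT1G40107, AT1G52850, AT5G32521 and AT5G32825 beside ATENSPM regions, AT5G26020 beside ATHAT1 and AT1G61510 beside HARBINGER. In AT1G52850 (ATENSPM4) a CpHpH bin stood at 27.1% in FLL, 15.9% in FLH and 17.0% in SQL. In AT5G26020 (ATHAT1) one stood at 31.8% in FLL, 17.5% in FLH, 17.0% in SQL and 27.0% in SQH.

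Protein-coding genes were the other 3. Beside AT4G27890, a gene for an HSP20-like chaperone, the SIMPLEGUY1 element AT4TE65510 had CpHpH levels of 34.9% in SQL and 21.7% in SQH at its first bin, and 47.0% in FLL and 26.8% in FLH at the same bin. The first-named regime was also higher in FLH vs SQH (41.3% in FLH, 25.5% in SQH) at another bin and in FLL vs SQL (34.9% in FLL, 21.0% in SQL) over a longer stretch that includes both. Inside AT2G34100, which codes for a nonsense-mediated mRNA decay-like protein, a bin of the ATDNAI27T9B element AT2TE63785 had 47.9% in FLL, 31.5% in FLH, 35.1% in SQL and 52.6% in SQH. Inside AT5G55565, a defensin-like gene, a bin of another ATDNAI27T9B element (AT5TE81030) had 39.9% in FLL, 26.7% in FLH and 27.4% in SQL. No expression data of these genes were used here.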

How the data were processed

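One bisulfite library per regime, of DNA pooled over plants, was compared in 4 tables of DMRs. According to the submitters' processing notes reads were trimmed with Trimmomatic 0.39 and aligned with Bismark and Bowtie2 to TAIR10. After duplicate removal the authors used DMRcaller on bins of 150 bp, with a P-value threshold of 0.01 and a minimum of 4 cytosines. The deposited counts are methylated and total reads summed over the cytosines of a context, not normalized. The deposited proportions (fractions, 0 to 1) are their ratio, and the p-value of each region is that deposited by the authors. The column of the authors' direction was not used. Levels and differences were recomputed from the counts. The table of SQL vs SQH repeats 137 of the DNA transposon regions on several lines, counted once. Of the distinct regions 20 carry another family name in another table.

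The files name the regimes of each pair in order, which fixed the columns, and reads of a shared library were identical between tables. The number of cytosines per region equaled that of RefSeq's TAIR10 sequence at all 1710 DNA transposon regions. Shares have 95% Wilson intervals, which cover counting error only. Named regions were tested by two-sided Fisher's exact test (SciPy 1.17.1, tested on simulated data), with Benjamini-Hochberg adjustment over all regions of the table. They are no separate check, since regions were called from the same reads. Named were the largest difference per comparison and context at 8 or more reads per cytosine in each library, bins listed in all 4 comparisons, the 5 loci with the most regions, the 3 regions with the largest smaller difference listed alike in both comparisons of a kind, families of at least 20 regions and at most 10 genes. One bin picked this way is not reported here. The family rule, the lists and the tests were chosen with earlier results of these data known. Alternatives were other thresholds, depth minima, weightings, all lines, 1 direction per locus from its pooled reads and leaving out the largest family.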

Additional observations from a re-analysis of the deposited data

Results flagged for a closer look

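Pooled differences had opposite signs in comparisons of the same kind, and none of these contrasts was tested, since each regime had 1 library. Each difference pools the regions listed in its own comparison, and few regions were listed in both comparisons of a kind. For CpHpH the fluctuating minus square difference was −2.19 points at high intensity (FLH vs SQH) and 6.15 at low intensity (FLL vs SQL). The low minus high difference for CpHpH was −5.55 points under square light (SQL vs SQH) and 2.95 under fluctuating light (FLL vs FLH). For CpHpG it was −5.43 and 10.4 points. Over all regions, in the same order, the CpHpH differences also changed sign, at −1.19 and 7.34 points and at −4.54 and 4.49 points. The CpHpG differences over all regions did not, at 3.50 and 7.02 points. At a deposited P-value of at most 0.001 the CpHpG difference of the DNA transposon regions in SQL vs SQH was −0.976 points. Of the 31 CpHpH regions listed in both FLH vs SQH and FLL vs SQL, 20 had the same direction. Of the 43 listed in both SQL vs SQH and FLL vs FLH, 26 did. The opposite signs therefore do not describe most regions listed in both. Over all regions the same direction was found in 214 of 422 and 146 of 322.

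The 4 bins listed in all comparisons for CpHpH changed sign in both kinds of contrast, also untested, and were picked for being in every table. Both kinds are computed from the same 4 levels of a bin, so they are not separate observations. In the order FLH vs SQH, FLL vs SQL, SQL vs SQH, FLL vs FLH, the differences were 10.06, −10.8, 10.9 and −10.02 points in AT1TE36945, −20.7, 24.5, −24.8 and 20.4 in AT2TE31520, −12.9, 14.5, −14.2 and 13.3 in AT3TE71030, and 16.2, −14.6, 15.3 and −15.5 in AT5TE73020. Outliers could not be looked for with 1 library per regime.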

How the results depend on the processing

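The main limit is 1 library per regime. No paired analysis was possible because each regime had 1 library and no result came from a replicated test. Total reads per region were lowest for CpG and CpHpG, and reads per cytosine lowest for CpHpH. In the order SQL vs SQH, FLL vs FLH, FLH vs SQH, FLL vs SQL, the regions numbered 257, 310, 308 and 390 at a deposited P-value of at most 0.001, and 74, 169, 105 and 284 with at least 8 reads per cytosine, since fewer regions pass. Of 64 recomputed shares 57 moved by less than their interval. With at least 8 reads, the share was 100% of 2 CpG and 21.8% of 55 CpHpH regions in SQL vs SQH, 81.0% of CpHpG in FLL vs FLH and 51.6% of CpG in FLH vs SQH, a reversal. At a CpG minimum of 0.4 it was 0% of 3 in FLL vs FLH and 83.3% of 6 in FLH vs SQH, again a reversal. At P at most 0.001 it was 73.7% for CpHpH in FLL vs SQL. The cause was not tested.

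Level differences kept their value in 26 of 48 cases. Unweighted, they were −4.84 points for CpHpH in SQL vs SQH, −0.872 for CpG in FLL vs FLH (a reversal), −4.76 for CpG and −2.73 for CpHpH in FLH vs SQH, and 5.44 for CpHpH in FLL vs SQL. With at least 8 reads they were 41.6 for CpG and −8.37 for CpHpH in SQL vs SQH, 14.1 for CpHpG and 4.16 for CpHpH in FLL vs FLH, 2.09 for CpG in FLH vs SQH (a reversal), and 15.6 for CpHpG and 7.08 for CpHpH in FLL vs SQL. At P at most 0.001 they were −0.976 for CpHpG and −6.41 for CpHpH in SQL vs SQH, 12.5 and 4.01 in FLL vs FLH, −9.65 for CpG, 14.5 for CpHpG and −1.77 for CpHpH in FLH vs SQH, and −15.9 for CpG, 23.6 for CpHpG and 7.41 for CpHpH in FLL vs SQL. With mean reads per cytosine as observations 0 of 48 named differences kept an adjusted p under 0.01. Counting all lines, taking 1 direction per locus from the pooled reads of its regions or leaving out SIMPLEGUY1 reversed no result.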
